A study of Homo sapiens with 6 samples.

Results

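Apolipoproteins are the protein coat of the particles that carry lipid in plasma, and lipoprotein receptors on the cell surface take up those particles or the lipid within them. The part of the transcriptome described here is a panel of 10 such genes of 23569 genes in the table, found by gene symbol: the apolipoproteins APOA1, APOB, APOC1, APOE, APOH, APOL1, APOL2 and APOM, and the receptors LRP1 and SCARB1. All 10 symbols were listed. They were measured by RNA-seq in TFK1, a human extrahepatic bile duct carcinoma line, as cells carrying a lentiviral negative control (oeNC, 3 libraries) and as cells with lentiviral STUB1 overexpression (oeSTUB1, 3 libraries). In the paper's methods such lines were selected with puromycin after infection, which is not restated for the sequenced cells. Both groups hold the STUB1 gene of the parental cells. As far as the sources tell, each group was 1 stable population, so a difference between populations and an effect of STUB1 cannot be told apart. Nothing in the labels says that the 3 libraries of a group came from separate cultures. The p-values then measure the spread between these libraries only, which may be technical.

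In liver and intestine, APOB and APOA1 form the scaffolds of low and high density lipoproteins, whereas APOE and the small APOC proteins move between particles and steer them to receptors or keep them from receptors and lipases. LRP1, a large endocytic receptor, clears APOE-bearing remnants, and SCARB1 takes cholesteryl ester selectively from high density lipoprotein. APOL1 and APOL2 belong to a gene family that responds to inflammatory cytokines, and most members of that family act inside the cell.

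Levels are given as FPKM, fragments scaled to gene length and to the library total, so that genes can be compared per length. Recovered library totals ran from 33106564 to 36744521 fragments. STUB1, the targeted gene, stood at 32.9, 33 and 30.9 FPKM in oeNC and at 61.4, 75 and 61.9 FPKM in oeSTUB1, a ratio of means of 2.05 (log2 fold change 1.03, SE 0.097, limma adjusted p = 0.00064). All 3 oeSTUB1 libraries lay above the oeNC libraries. One library stood apart: in oeSTUB1 replicate 2, genes of up to 1000 bases had a median log2 deviation of 0.38 from the other oeSTUB1 libraries and genes over 8000 bases one of -0.42, whereas oeNC medians by length stayed within 0.051 of 0. Members whose values move with this library are given with and without it. Of the bile duct markers, KRT7, KRT8 and KRT18 were abundant, KRT19 was at 0.374 to 0.529 FPKM in oeNC and 2.51 to 3.41 FPKM in oeSTUB1, and CFTR was at or near 0.

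Among the 8 members tested, the largest difference was in APOC1, which fell in oeSTUB1, and the neighbouring paralogs APOL1 and APOL2 changed in opposite directions. SCARB1 and APOL2 fell by smaller amounts. APOH and APOE were lower on average without passing the test, APOM and LRP1 did not pass it either, and APOA1 and APOB were close to absent in both groups. Of the 10 members, 8 reached the mean FPKM of 0.1 needed for testing. A gene was called at a Benjamini-Hochberg adjusted p under 0.05 over all 15353 genes tested with an absolute log2 fold change over 1, and here 1 member, APOC1, was called lower and 0 were called higher, against 5.20% of all tested genes called in either direction. By the adjusted p alone, 3 members fell (APOC1, APOL2 and SCARB1) and 1 rose (APOL1), beside 13.6% of all tested genes (6.59% lower and 7.01% higher). The groups did not overlap for 6 of the 8 tested members, 5 lower and 1 higher in oeSTUB1, beside 38.8% of all tested genes (17.3% lower and 21.5% higher). The median log2 fold change of the 8 was -0.49, and that of all tested genes was 0.02. In the text a member is said to rise or fall where its adjusted p was under 0.05. Fold changes are on the log2(FPKM + 0.1) scale, which understates the change of low genes.

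**Figure D1:**
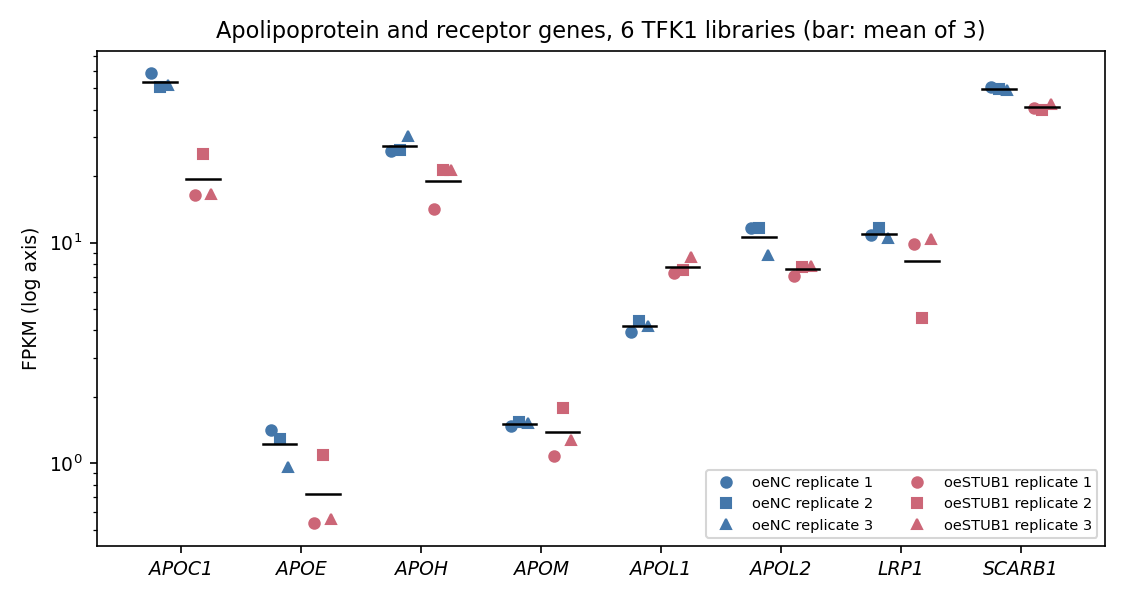
FPKM (log axis) of the 8 tested members, with 1 point for each oeNC library (blue) and oeSTUB1 library (red), marker shape for the replicate, and a bar for the mean of 3. APOC1 sits between 50.5 and 58.6 FPKM in oeNC and between 16.5 and 25.1 FPKM in oeSTUB1, and APOL1 is higher in all 3 oeSTUB1 libraries than in any oeNC library.

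In oeNC the members ranked per length from APOC1, at 53.7 ± 4.26 FPKM (SD, n = 3), through SCARB1 at 49.9 ± 0.582, APOH at 27.5 ± 2.52, LRP1 at 11.0 ± 0.624, APOL2 at 10.6 ± 1.61, APOL1 at 4.18 ± 0.234, APOM at 1.51 ± 0.0325 and APOE at 1.22 ± 0.23 FPKM. APOC1 and SCARB1 differed by less than the SD of APOC1, and LRP1 and APOL2 by less than the SD of APOL2. In oeSTUB1 the order was SCARB1 at 41.2 ± 1.36 FPKM, APOC1 at 19.5 ± 4.93, APOH at 19.0 ± 4.12, LRP1 at 8.27 ± 3.24, APOL1 at 7.78 ± 0.695, APOL2 at 7.56 ± 0.443, APOM at 1.38 ± 0.362 and APOE at 0.729 ± 0.315 FPKM. There APOC1 could not be separated from APOH, nor LRP1 from the APOL genes, nor APOL1 from APOL2, beyond their spread. SCARB1 was thus the highest member in oeSTUB1, and APOC1 moved from rank 947 to rank 2819 of the listed genes by mean FPKM.

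APOC1 encodes a small apolipoprotein that inhibits lipoprotein lipase and the uptake of remnant particles. It lies on chromosome 19 at 44914247 to 44919349, plus strand (GENCODE release 29 on GRCh38, as for all positions given for genes). Its level was 58.6, 50.5 and 52.1 FPKM in oeNC replicates 1, 2 and 3, and 16.5, 25.1 and 16.7 FPKM in oeSTUB1 replicates 1, 2 and 3. Every oeSTUB1 library was below every oeNC library, and oeSTUB1 replicate 2 was the highest of its group. These values rest on 1443 to 1675 fragments in each oeNC library and 469 to 686 fragments in each oeSTUB1 library. The mean was 2.76-fold lower in oeSTUB1 (log2 fold change -1.49, SE 0.16, limma adjusted p = 0.0012), and the adjusted p stayed under 0.05 in 16 of 16 alternative fits, between 1.6e-05 and 0.0086. Without oeSTUB1 replicate 2 the log2 fold change was -1.69 (adjusted p = 1.6e-05). APOC1 has a pseudogene of similar sequence, APOC1P1, which was not listed in the table, and how reads shared between them were counted is not given in the sources used here.

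APOE, the ligand through which remnant particles bind LRP1, lies beside APOC1 at 44905754 to 44909393 on the same strand of chromosome 19. Its level was 1.41, 1.29 and 0.964 FPKM in oeNC and 0.535, 1.09 and 0.56 FPKM in oeSTUB1. The groups overlapped, because oeSTUB1 replicate 2 lay above oeNC replicate 3. The log2 fold change was -0.72 (SE 0.27, limma adjusted p = 0.12) on only 26 to 69 fragments a library. Without oeSTUB1 replicate 2 it was -1.01 (adjusted p = 0.0075), and with each library corrected for gene length, a step chosen after the data were seen, it was -0.80 (adjusted p = 0.028). In oeSTUB1 replicate 2, APOE deviated by 0.88 and APOC1 by 0.60 on the log2 scale from the mean of the other oeSTUB1 libraries, the same direction as other short genes in that library, and the part of length in these values was not tested further.

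The ratio of APOC1 to APOE FPKM within each library was 41.6, 39.2 and 54 in oeNC and 30.9, 23 and 29.8 in oeSTUB1. All 3 oeSTUB1 ratios were below the oeNC ratios. The mean log2 ratio, taken on FPKM + 0.1, was 5.36 in oeNC and 4.59 in oeSTUB1, a difference of -0.77 (exact permutation test over libraries, two-sided, p = 0.1, and 3 against 3 libraries allow no smaller p). With a pseudocount of 1 that difference was -1.07.

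The nearest listed protein-coding genes on either side of the pair did not fall with APOC1, and genes not listed were passed over. They were chosen after values were seen. On the APOE side, TOMM40 had a log2 fold change of 0.31 (limma adjusted p = 0.086) and NECTIN2 one of 0.12 (adjusted p = 0.37). On the APOC1 side, CLPTM1 rose by 0.28 (adjusted p = 0.037, under 0.05 in only 7 of 16 alternatives) and RELB, a subunit of NF-kappa-B, rose from 4.1 to 6.99 FPKM (0.76, adjusted p = 0.006). The median of the 1036 tested genes of chromosome 19 was 0.05.

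The 3 genes whose levels followed APOC1 most closely over the 6 libraries, of 11368 genes compared (mean FPKM 1 or more), were ASGR1 (Pearson r = 0.9948), RHOF (0.9947) and GCA (0.9944). The libraries fall into 2 groups, so these coefficients mostly reflect the difference between groups and are given as a description. ASGR1, a subunit of the hepatic asialoglycoprotein receptor, stood at 6.11, 5.42 and 6.36 FPKM in oeNC and at 0.884, 1.52 and 0.747 FPKM in oeSTUB1 (log2 fold change -2.45, limma adjusted p = 0.00063). As for APOC1, oeSTUB1 replicate 2 was the highest of its group. RHOF, a small GTPase, also fell (log2 fold change -0.39, adjusted p = 0.02, under 0.05 in 10 of 16 alternatives). GCA, a calcium-binding protein, fell as well (-0.89, adjusted p = 0.0039). The 3 genes were picked for likeness to APOC1 in these libraries. Their falls and the shared pattern of replicate 2 follow from that choice and are no separate result.

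APOH encodes beta-2-glycoprotein I, a plasma protein made mainly by hepatocytes that binds anionic phospholipid. The gene spans 66212033 to 66256525 on the minus strand of chromosome 17. Its promoter window is shown because it held the lowest GC content and, with APOM, the fewest CpG dinucleotides, the sites of DNA methylation. Compared were the first RefSeq windows of the 5 members that had any (GRCh38.p14; APOC1, APOE, APOH, APOM and LRP1). These members had 7 windows in all, and the later ones were not compared. The run is the minus strand of chr17:66229423-66229665, from base -250 to base -8 relative to the RefSeq start, which lies inside the longer GENCODE gene. Capitals mark the 2 CpG dinucleotides of this run, and methylation itself was not measured in these libraries.
APOH: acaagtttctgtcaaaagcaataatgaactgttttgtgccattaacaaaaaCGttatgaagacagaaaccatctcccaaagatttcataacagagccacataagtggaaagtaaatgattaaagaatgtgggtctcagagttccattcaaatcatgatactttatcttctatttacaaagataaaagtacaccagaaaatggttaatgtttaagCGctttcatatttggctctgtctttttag

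The first windows, of 250 bases each, held 3 CpG dinucleotides and 33.2% GC for APOH, 5 and 64.8% for APOE and 7 and 62.4% for APOC1. They held 3 and 50.4% for APOM and 20 and 67.6% for LRP1, against medians of 11 and 58% over all 35116 windows. The motifs CAAAGTCCA for HNF4 (in 0.325% of all windows), CAAGGTCA for NR5A2 (1.14%) and the core of the interferon response element (3.02%) were searched on both strands. None matched any of the 7 member windows. That says only that these letters are not in these windows.

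APOH was at 25.9, 26.2 and 30.4 FPKM in oeNC and at 14.2, 21.4 and 21.3 FPKM in oeSTUB1. All 3 oeSTUB1 libraries were below the oeNC libraries, with replicate 1 the lowest. The log2 fold change was -0.55 (SE 0.16, limma adjusted p = 0.063), which did not pass the test. The adjusted p was under 0.05 in 4 of 16 alternatives, among them 0.023 without oeSTUB1 replicate 2, 0.035 after quantile normalization and 0.01 after the length correction. It was 0.14 to 0.2 when an oeNC library was left out, and without oeSTUB1 replicate 1 the log2 fold change was -0.36 (adjusted p = 0.074).

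APOM is a lipocalin that carries sphingosine-1-phosphate on high density lipoprotein. It lies at 31652416 to 31658210 on the plus strand of chromosome 6, where it overlaps BAG6 on the opposite strand. Whether the counting used strand is not given in the sources used here, so reads of APOM and BAG6 may not be separated. APOM was at 1.48, 1.54 and 1.52 FPKM in oeNC and at 1.08, 1.78 and 1.28 FPKM in oeSTUB1. Only oeSTUB1 replicate 2, the library that stood apart, lay above oeNC, and the other oeSTUB1 libraries lay below. The log2 fold change was -0.15 (SE 0.18, limma adjusted p = 0.62), on 34 to 54 fragments a library. It was -0.34 (adjusted p = 0.079) without oeSTUB1 replicate 2 and 0.00 (adjusted p = 0.99) without replicate 1.

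APOL1, the secreted member of the APOL family and the trypanolytic factor of human serum, lies on chromosome 22 at 36253010 to 36267530, plus strand. It stood at 3.94, 4.41 and 4.19 FPKM in oeNC and at 7.26, 7.5 and 8.57 FPKM in oeSTUB1. Every oeSTUB1 library was above every oeNC library, and oeSTUB1 replicate 2 deviated by only -0.07 on the log2 scale from the other libraries of its group. The mean rose 1.86-fold (log2 fold change 0.88, SE 0.1, limma adjusted p = 0.0014). The change was short of the log2 fold change of 1 used for a call, and its adjusted p was under 0.05 in 16 of 16 alternatives, between 0.00063 and 0.012.

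APOL2, an intracellular member of the family, lies next to APOL1 at 36226203 to 36239954 on the minus strand. It was at 11.6, 11.6 and 8.78 FPKM in oeNC and at 7.05, 7.76 and 7.86 FPKM in oeSTUB1. The groups did not overlap, but oeNC replicate 3 lay much nearer to the oeSTUB1 libraries than the other two did. APOL2 fell by 0.48 on the log2 scale (SE 0.12, limma adjusted p = 0.042). The adjusted p was 0.05 or more in 7 of 16 alternatives, among them without oeNC replicate 1 (adjusted p = 0.16), oeNC replicate 2 (0.17), oeSTUB1 replicate 1 (0.11) or oeSTUB1 replicate 3 (0.077).

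The ratio of APOL1 to APOL2 was 0.341, 0.381 and 0.477 in oeNC and 1.03, 0.967 and 1.09 in oeSTUB1. APOL1 was below APOL2 in every oeNC library, and both genes were at about the same level per length in oeSTUB1. The mean log2 ratio rose from -1.32 to 0.04, a difference of 1.36, which by the two-sided exact permutation test had the smallest p that the design allows (0.1). The genes are paralogs, so reads from shared sequence could be assigned to either. Beside them, MYH9 had a log2 fold change of 0.50 (limma adjusted p = 0.055) and TXN2 one of 0.21 (adjusted p = 0.31), and the other family members at the locus, APOL3 and APOL4, had at most 9 fragments in any library.

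**Figure D2:**
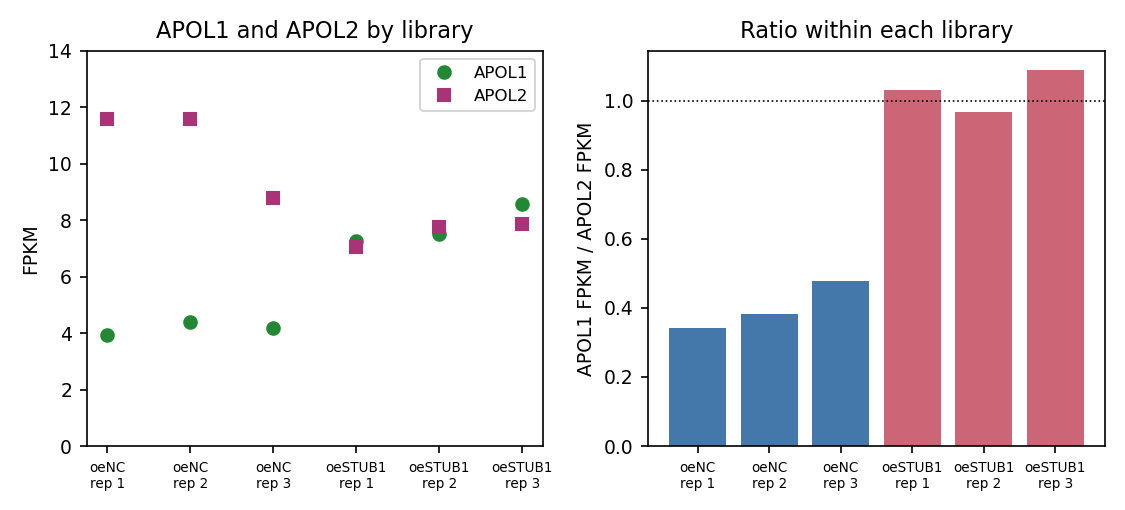
FPKM of APOL1 (circles) and APOL2 (squares) in each of the 6 libraries, and their ratio in each library as bars from 0, oeNC in blue and oeSTUB1 in red. The ratio lies between 0.341 and 0.477 in oeNC and between 0.967 and 1.09 in oeSTUB1.

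APOA1 (chromosome 11, 116835751 to 116837950, minus strand) and APOB (chromosome 2, 21001429 to 21044073, minus strand) make the scaffolds of high and low density lipoprotein. APOA1 had 3, 0 and 4 fragments in oeNC and 0, 1 and 1 fragments in oeSTUB1. The 7 oeNC fragments against 2 oeSTUB1 fragments give a depth-scaled ratio of 3.36 with an exact 95% interval of 0.639 to 33.1, which covers counting error only, so no difference was detectable at this depth. APOB had 0, 0 and 0 fragments in oeNC and 2, 0 and 1 fragments in oeSTUB1. All 6 libraries were at or under the floor of 3 fragments per library, which for this gene of 14121 bases corresponds to at most 0.00642 FPKM, and no fold is given.

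SCARB1, the high density lipoprotein receptor, lies on chromosome 12 at 124776856 to 124882668, minus strand. It was measured at 50.5, 49.7 and 49.4 FPKM in oeNC and at 40.8, 40.1 and 42.7 FPKM in oeSTUB1. The values within each group were close, and the groups did not overlap. SCARB1 fell by 0.28 on the log2 scale (SE 0.068, limma adjusted p = 0.036), on at least 2989 fragments a library. The adjusted p was 0.05 or more in 7 of 16 alternatives, and was 0.17, 0.16 and 0.12 without oeNC replicate 1, 2 or 3, and 0.084 and 0.062 without oeSTUB1 replicate 1 or 3.

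LRP1 spans 57128493 to 57213351 on the plus strand of chromosome 12, where STAT6 overlaps it on the opposite strand, as does the antisense gene LRP1-AS. With the strand setting not given, reads of these genes may not be separated. LRP1 was at 10.8, 11.7 and 10.5 FPKM in oeNC and at 9.84, 4.55 and 10.4 FPKM in oeSTUB1. Only oeSTUB1 replicate 2 was far from the rest, and the other oeSTUB1 libraries were just under the lowest oeNC library. The log2 fold change was -0.49 (SE 0.28, limma adjusted p = 0.29), and it was -0.11 (adjusted p = 0.25) without oeSTUB1 replicate 2. At 14923 bases LRP1 was the longest member, and its log2 deviation in that library was -1.14. After the length correction its log2 fold change was -0.37 (adjusted p = 0.14).

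**Figure D3:**
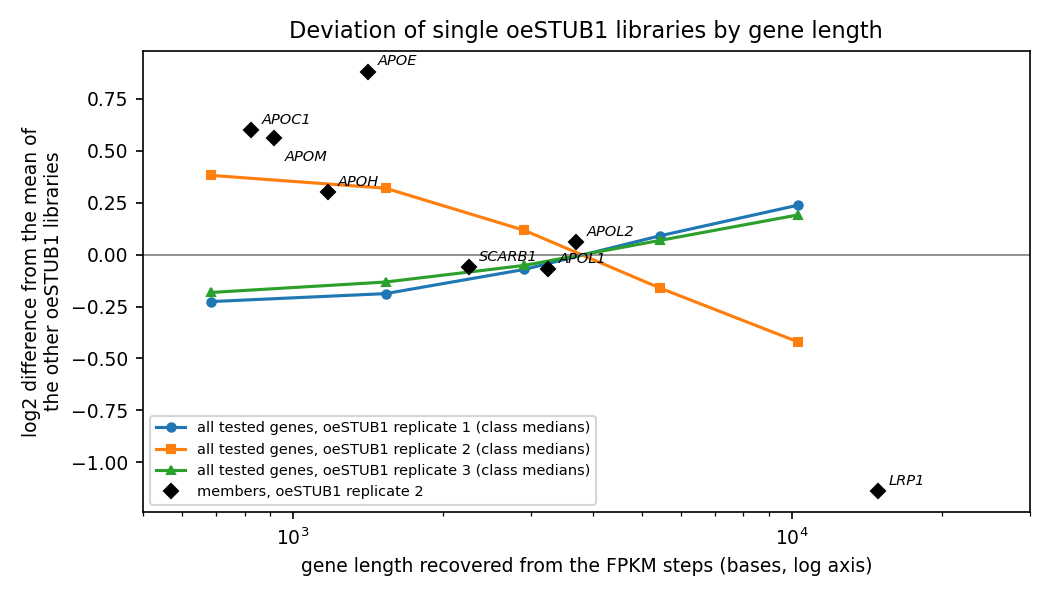
Log2 difference of each oeSTUB1 library from the mean of the other oeSTUB1 libraries against gene length in bases (log axis), as medians of all tested genes in 5 length classes (lines, plotted at the median length of the class) and, for replicate 2, as the 8 tested members (diamonds). In replicate 2 the class medians run from 0.38 in the shortest genes to -0.42 in the longest, and the members run from 0.88 for APOE to -1.14 for LRP1.

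Across members, the deviations in oeSTUB1 replicate 2 were 0.88 for APOE, 0.60 for APOC1, 0.56 for APOM and 0.30 for APOH, the 4 shortest tested members, and 0.06 for APOL2, -0.06 for SCARB1, -0.07 for APOL1 and -1.14 for LRP1. For APOH, replicate 3 deviated about as much (0.29) and replicate 1 by -0.58, so replicate 2 did not stand apart there. APOC1, APOH, SCARB1, APOL1, APOL2 and LRP1 were on the same side of oeNC in this library as in the other oeSTUB1 libraries. For LRP1 the other libraries were only just below oeNC. APOE and APOM were not on the same side throughout.

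**Figure D4:**
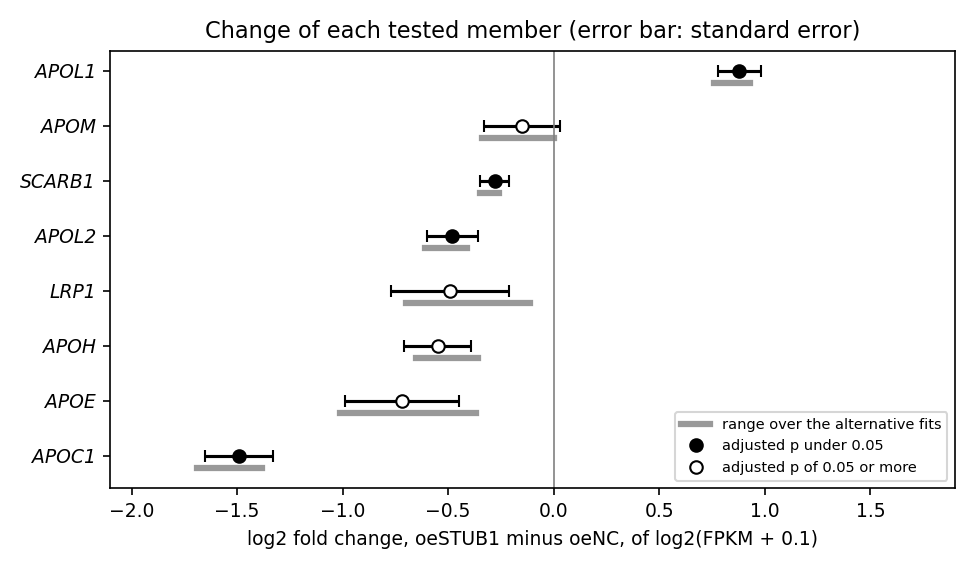
Log2 fold change (oeSTUB1 minus oeNC, log2(FPKM + 0.1)) of the 8 tested members with its SE from limma, filled where the adjusted p was under 0.05, and a grey bar for the range over the alternative fits. APOC1 lies between -1.69 and -1.38 and APOL1 between 0.76 and 0.93 over the alternatives, whereas LRP1 moves from -0.49 to -0.11 without oeSTUB1 replicate 2.

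The other genes of lipoprotein biology were taken from 8 lists of 117 genes, of which 104 were listed in the table and 79 tested. Of these, 4 were called higher and 5 lower, where 2.79% and 2.40% of all 15353 tested genes were called in those directions, and the median log2 fold change was -0.09. Among further apolipoproteins, 11 of 20 were listed and 8 tested, with a median of 0.10. SAA1, an acute-phase protein of high density lipoprotein, was at 0.607, 0.477 and 1.15 FPKM in oeNC and at 2.14, 2.77 and 3.56 FPKM in oeSTUB1 and was called higher (log2 fold change 1.84, SE 0.3, limma adjusted p = 0.0068). SAA1 and SAA2 are nearly identical, so the division of reads between them is uncertain. APOL6, another APOL gene, rose by 0.90 (adjusted p = 0.024, under 0.05 in 10 of 16 alternatives), whereas CLU, the most abundant gene of the list and an extracellular chaperone also called apolipoprotein J, fell from 261 ± 9.58 to 180 ± 22.8 FPKM (-0.54, adjusted p = 0.015, under 0.05 in 13 of 16). APOA4, APOA5, APOC2, APOC3 and APOC4 were among the 9 symbols not listed.

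Among endocytic receptors related to LRP1, 12 of 14 genes were tested and 0 were called, with a median of -0.13. VLDLR, a receptor for triglyceride-rich particles, rose by 0.52 (limma adjusted p = 0.017, under 0.05 in 12 of 16 alternatives), while the most abundant, LRP10, had a log2 fold change of -0.35 (adjusted p = 0.051). Of the partners and regulators of these receptors, 10 of 12 were tested and 2 were called, both lower. PDZK1, the scaffold that holds SCARB1 at the hepatocyte surface, was at 4.52, 4.03 and 3.4 FPKM in oeNC and at 0.307, 0.76 and 0.42 FPKM in oeSTUB1 (-2.84, SE 0.27, adjusted p = 0.00064). DAB2, a clathrin adaptor for these receptors, was at 12.6, 12.6 and 13.2 FPKM in oeNC and at 4.67, 3.54 and 5.19 FPKM in oeSTUB1 (-1.52, SE 0.14, adjusted p = 0.00056). For both genes the groups were well apart. The other tested genes of this list, SNX17 with the highest level among them (0.10, adjusted p = 0.6), did not pass the test, and the list's median was 0.02.

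Of 13 scavenger receptors 6 were tested, with a median of -0.43. OLR1, the receptor for oxidised LDL, was called higher, from 0.556 to 1.5 FPKM (1.26, SE 0.19, limma adjusted p = 0.0051), but not with a pseudocount of 1 (0.67). CD68, CXCL16 and SCARA3 fell by 0.50, 0.36 and 0.62 (adjusted p = 0.003, 0.045 and 0.0056), in 16, 8 and 16 of 16 alternatives, and SCARB2, the most abundant, had a log2 fold change of 0.01 (adjusted p = 0.97). In the list for particle assembly and secretion 9 of 13 genes were tested, with a median of 0.04. CIDEB, which acts in lipidation of very low density lipoprotein, was called lower, from 0.595 to 0.152 FPKM (-1.48, SE 0.24, adjusted p = 0.0069), but not with a pseudocount of 1 (-0.47), and it was not tested at a minimum mean of 1 FPKM. SURF4, a cargo receptor for lipoprotein export, rose by 0.35 (adjusted p = 0.017, under 0.05 in 11 of 16 alternatives), and P4HB, the subunit shared with the microsomal transfer protein, had a log2 fold change of 0.24 (adjusted p = 0.11).

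ABCA1, the transporter that loads lipid onto APOA1 and APOE, was the only 1 of 4 tested efflux genes called. It stood at 0.628, 0.632 and 0.703 FPKM in oeNC and at 1.92, 1.06 and 1.89 FPKM in oeSTUB1 (log2 fold change 1.15, SE 0.23, limma adjusted p = 0.015), with oeSTUB1 replicate 2 lowest of its group but above oeNC. Its adjusted p was under 0.05 in 12 of 16 alternatives and reached 0.064 with 1 library left out, the call being lost when a single oeNC library (each of the 3) or oeSTUB1 replicate 1 was left out. With a pseudocount of 1 its log2 fold change was 0.65, also short of a call. ABCA7, the most abundant of the 4, had a log2 fold change of -0.07 (adjusted p = 0.78), and the median was -0.12. Of the plasma lipases and remodelling factors 10 of 17 were tested and 0 were called, with a median of -0.07. ANGPTL4, an inhibitor of lipoprotein lipase, fell by 0.53 (adjusted p = 0.039, under 0.05 in 8 of 16 alternatives), and PON2, an intracellular paraoxonase, was at 304 and 306 FPKM.

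Of 22 transcriptional regulators of apolipoprotein genes 20 were tested, 1 was called higher and 2 lower, and the median was -0.21. HNF4A, the hepatocyte nuclear factor that binds many apolipoprotein promoters, was at 11.1, 11.3 and 10.1 FPKM in oeNC and at 5.44, 4.3 and 5.87 FPKM in oeSTUB1 (log2 fold change -1.05, SE 0.13, limma adjusted p = 0.0018). HNF4A was short of a log2 fold change of -1 without oeSTUB1 replicate 2, at -0.92. NR1H4, the bile acid receptor FXR, fell from 1.5 to 0.464 FPKM (-1.52, SE 0.17, adjusted p = 0.0012), and was short of a call with a pseudocount of 1 (-0.78), as was HNF4A. NR5A2 was called higher, from 3.63 to 9.92 FPKM (1.42, SE 0.098, adjusted p = 0.00018). By the adjusted p alone, FOXA1 (-0.51, adjusted p = 0.035) and NR1H3 (-0.45, adjusted p = 0.049) were among those that also fell, and RXRA rose (0.34, adjusted p = 0.03). Their adjusted p was under 0.05 in 10, 6 and 9 of 16 alternatives. CEBPB, the most abundant of the list, had a log2 fold change of -0.24 (adjusted p = 0.28).

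**Figure D5:**
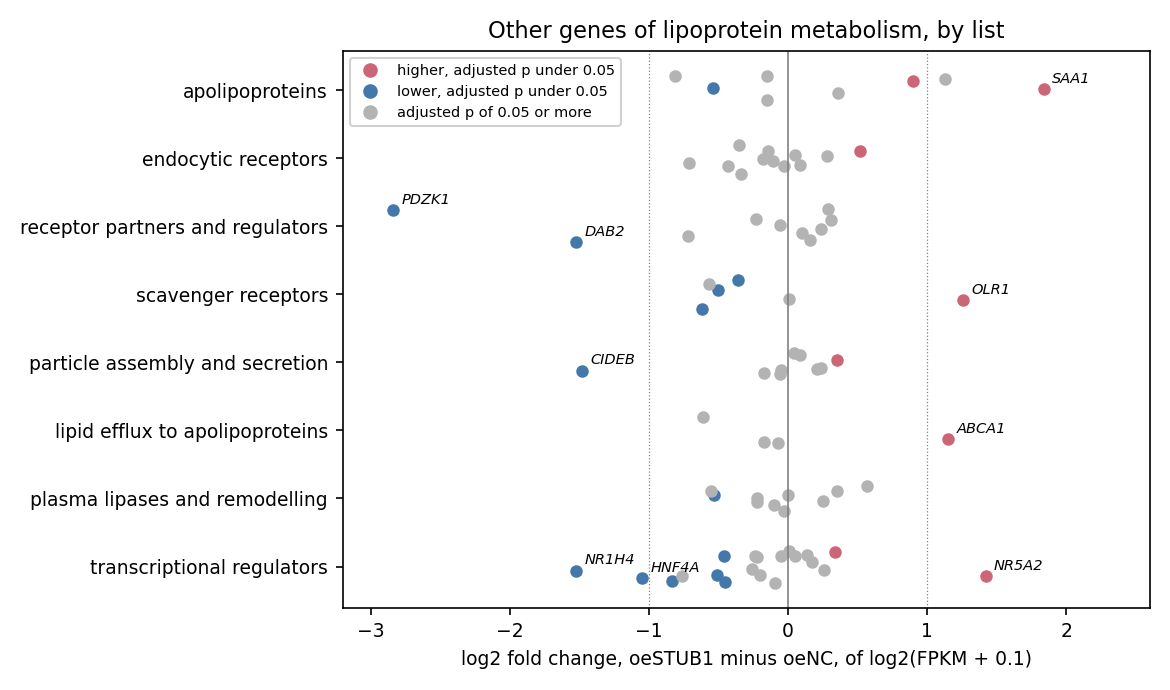
Log2 fold change (oeSTUB1 minus oeNC) of the 79 tested genes of the 8 lipoprotein lists, 1 row per list, coloured where the adjusted p was under 0.05, with called genes labelled and dotted lines at a log2 fold change of 1 in either direction. PDZK1 lies lowest at -2.84 and SAA1 highest at 1.84.

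Several members are made mainly by hepatocytes, and APOE and APOC1 are also made by macrophages, so markers of the cell types in question were read beside them. The 16 hepatocyte markers summed to 256 to 259 FPKM in oeNC and 154 to 205 FPKM in oeSTUB1. Of these, 5 had a mean of at least 1 FPKM, and ALB was at most 0.0512 FPKM in any library. Fibrinogen made up most of this sum, with FGA going from 59.5 to 46.2, FGB from 97.5 to 63.1 and FGG from 89.6 to 65.4 FPKM. Of 9 tested, 4 fell, namely FGB, FGG, AHSG (log2 fold change -1.44) and ASGR1 (-2.45), and 0 rose. Their adjusted p was under 0.05 in 14 of 16, 11 of 16, 10 of 15 and 16 of 16 alternatives, in that order. Of all tested genes, 6.59% were lower and 7.01% higher by the adjusted p. FGA (limma adjusted p = 0.08), SERPINA1 (0.801 and 0.931 FPKM), AMBP (1.22 and 1.21 FPKM), HPX and CYP2E1 did not pass the test. Of the 10 enterocyte markers 6 were listed, with sums of 2.79 to 3.49 FPKM in oeNC and 1.08 to 1.26 FPKM in oeSTUB1, and 2 of 3 tested, VIL1 and CDX2, fell. The 12 cholangiocyte markers summed to 7532 to 8126 FPKM in oeNC and 4840 to 6407 FPKM in oeSTUB1, with 5 of 11 tested lower and 1, KRT19, higher. KRT8 and KRT18 made up most of that sum and fell (limma adjusted p = 0.037 and 0.024), each under 0.05 in only 9 of 16 alternatives. KRT7 went from 502 to 704 FPKM without passing the test (log2 fold change 0.47, adjusted p = 0.082). Of 12 macrophage markers 9 were listed, C1QA, C1QB and C1QC not among them, with sums of 5.9 to 9.52 and 7.67 to 9.18 FPKM and 0 of the 6 tested changed. Fibroblast markers (1.31 to 2.37 and 2.18 to 4.08 FPKM) and endothelial markers (0.0855 to 0.161 and 0.115 to 0.267 FPKM) had 0 changed of 2 and 1 tested. The hepatocyte, enterocyte and cholangiocyte sums, each carried by a few genes, were lower in oeSTUB1 along with APOC1, and their part in its fall was not tested. In bulk RNA, fewer cells that express a gene and less of its RNA per cell cannot be told apart.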

How the data were processed

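RNA-seq of TFK1 cells was compared between 3 oeNC and 3 oeSTUB1 libraries, grouped by their labels. The authors deposited FPKM values per gene symbol. The submitters' processing notes name fastp 0.20.1, HISAT2 2.1.0, HTSeq 0.11.2, and the build GRCh38.p13. The annotation and strand setting are not given in the sources used here. FPKM values were whole multiples of 1 fragment's worth, and whole fragments were recovered for 23569 genes (100% of genes, FPKM recomputed within 4.9e-06), up to a common divisor per gene. Replicates differed by more than sampling noise.

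Values were tested with limma 3.58.1 in R 4.3.3 (lmFit, eBayes with trend, two-sided) on log2(FPKM + 0.1), keeping the 15353 genes whose mean FPKM reached 0.1, with Benjamini-Hochberg adjustment over all of them. The procedure was tested on simulated data with the same spread setting for all libraries and no trend with gene length. That simulation does not cover the length trend of oeSTUB1 replicate 2. Ratios were compared by two-sided exact permutation tests.

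The members and lists were chosen with earlier results of these data known. Named genes were the members, STUB1, the genes called in 8 lipoprotein lists and the most abundant gene of each, and the 3 genes most like each called member. A few genes of these lists and results that rest on them are not reported here. Other named genes, those with an adjusted p under 0.05 among them, the flanking genes and the marker genes were added after values were seen. The pseudocount was also set to 1 or 0.01, and the filter was dropped or raised to 1 FPKM. Libraries were also scaled by median ratios or quantile-normalized, and eBayes was run without trend, with replicate as a block, and with each library left out in turn. Calls without a minimum fold change and limma-voom on recovered fragments were further alternatives. A lowess correction for gene length was added after the data were seen. Other steps used Python 3.11.15.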

Additional observations from a re-analysis of the deposited data

How the results depend on the processing

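All tested members and both ratios kept their direction under every alternative run, except that APOM was at 0.00 without oeSTUB1 replicate 1. Without a minimum fold change, 1 member counted as higher and 3 as lower, and 8 and 14 genes of the lipoprotein lists did so. With a pseudocount of 1, 2 list genes were called higher and 2 lower, and the log2 ratio of APOC1 to APOE differed by -1.07. With a filter at a mean FPKM of 1, which tests fewer low genes, 3 list genes were called lower. Leaving out 1 library at a time gave 1 to 2 members called lower, the second being APOE without oeSTUB1 replicate 2, 3 to 6 list genes higher and 4 to 6 lower, with 6 higher without oeSTUB1 replicate 2. Replicate numbers did not pair the libraries (correlations of deviations -0.0491, -0.0521 and 0.0617, with 2 of 6 libraries closest to their own number). With the replicate block, 0 members were called higher and 1 lower, 4 list genes higher and 5 lower, and the ratios differed by 1.36 and -0.77. By the adjusted p alone under the block, APOH passed (0.043) and APOL2 (0.075) and SCARB1 (0.11) did not. The adjusted p of APOL2 and SCARB1 was also over 0.05 without the eBayes trend (0.073 and 0.08), and that of APOL2 without a filter (0.071), and the cause was not tested. APOE was not tested at a mean FPKM of 1. Depth limits APOA1 and APOB, at 4 fragments or fewer per library.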
